A study of Mus musculus with 18 samples.

Results

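The genes described here are Sectm1a, Mal, Tmem178, Cpxm2, Lix1, Il10rb, Rftn2, Pde1a, Snx10 and Adh6b, 10 of the 55416 genes in the deposited tables of a mouse ovary RNA sequencing study. They were picked by symbol for rises with little spread in both groups of 40-week ovaries over 8-week ovaries. The levels against 8-week ovaries chose the genes, so they are given below as a description without a test. The choice set no numerical limit, and no gene lies just inside or just outside one. All 10 passed the filter on low counts, among 16959 genes that did.

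The study profiled ovaries of wildtype female Balb/c mice by 3' RNA sequencing, with 6 mice per group and a library from each of 18 ovaries. The group OC+SM was aged 40 weeks and received Samul-tang, a Korean herbal decoction, by mouth at 2.5 g/kg. The group OC was aged 40 weeks and received distilled water, and the group YC was aged 8 weeks and also received distilled water. Dosing was 5 times a week for 4 weeks in every group. Ovulation was then induced with PMSG (5 IU), a gonadotropin from pregnant mares, and with hCG (5 IU), the human placental gonadotropin, given 48 hours later, and ovaries were taken 16 hours after hCG. OC and OC+SM mice were kept apart inside shared cages. The data therefore describe a hormone-stimulated ovary just after ovulation and not the resting cycle. No group of young mice was given Samul-tang. A whole ovary mixes many cell types, so a difference in the number of cells of a type and a difference in RNA per cell cannot be told apart.

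The mouse ovary loses follicles with age while stroma, vessels and immune cells make up more of what is left. After hCG, the ruptured follicles turn into corpora lutea, which make progesterone. Several of the genes described here act at membranes: Mal and Rftn2 encode proteins of lipid rafts, Snx10 a protein of endosomes and Tmem178 a protein of the endoplasmic reticulum. Il10rb and Sectm1a belong to immune signalling, Pde1a breaks down cyclic nucleotides when calcium rises, and Adh6b and Cpxm2 belong to families of dehydrogenases and carboxypeptidases.

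Levels are in CPM, counts relative to the library total after TMM scaling, which corrects for a few genes taking a large share. Library totals ran from 14200654 to 20354213 counts in OC+SM, from 11612229 to 13428410 in OC and from 9049175 to 14147370 in YC. Every OC+SM library was therefore deeper than every OC library and every YC library. The gene with the most counts, ENSMUSG00000119584, took 6.2 to 14.35% of counts in OC+SM, 13.81 to 18.49% in OC and 12.58 to 15.95% in YC. A pair of libraries stood apart. OC+SM 6 and YC 3 had the lowest mean correlation with the other libraries of their groups, at 0.963 and 0.964, and the fold changes of Tmem178 and Cpxm2 are given below with and without them. OC+SM 6 was the lowest OC+SM library for 7 of the 10 genes, and YC 3 the lowest YC library for 5.

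In the fit of all 18 libraries, all 10 genes stood higher in OC+SM than in YC and in OC than in YC, as their choice required. Their median log2 fold change was 1.66 in OC+SM and 1.76 in OC, against 0.00 over all genes in both comparisons. These values follow from the choice of the genes. Every OC library lay above every YC library for all 10 genes (3.21% of all genes), and every OC+SM library did so for 8 of 10 (4.85% of all genes). Cpxm2 and Adh6b were the exceptions, each with 1 OC+SM library inside the YC range, so a rise in every aged library did not hold for them. They also varied widely within OC+SM, with coefficients of variation of 40.8% and 54.3%. Over all genes, 239 had all 12 aged libraries above all 6 YC libraries (1.41%).

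**Figure D1:**
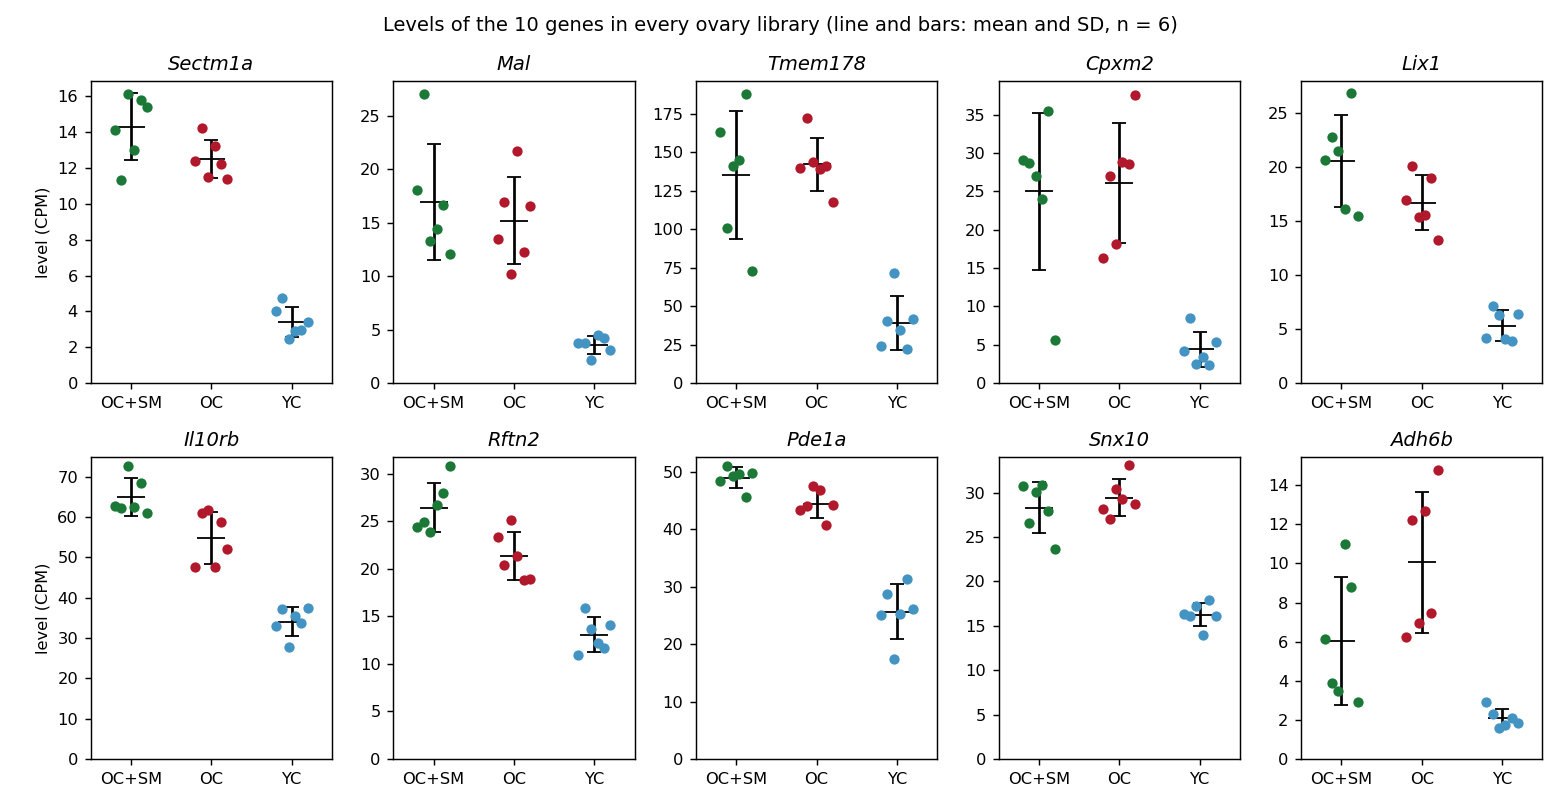
Levels in CPM (vertical axis, linear and starting at 0) of each of the 10 genes in OC+SM, OC and YC libraries (horizontal axis). Points are single libraries and the line with bars is the mean with its SD (n = 6). The aged libraries lie above the YC libraries except for 1 OC+SM library of Cpxm2 at 5.66 CPM and 1 of Adh6b at 2.89 CPM.

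Sectm1a, the mouse relative of human SECTM1, a membrane and secreted ligand of the lymphocyte receptor CD7, separated the ages most widely of the 10 genes. It ranged from 11.3 to 16.1 CPM with a median of 14.8 in OC+SM, from 11.4 to 14.2 CPM with a median of 12.3 in OC, and from 2.45 to 4.73 CPM with a median of 3.18 in YC. The lowest aged library therefore stood well above the highest young one, and the aged groups covered much the same range. Means were 14.3 ± 1.87 CPM in OC+SM, 12.5 ± 1.07 CPM in OC and 3.41 ± 0.836 CPM in YC (SD, n = 6 each), with log2 fold changes over YC of 2.06 ± 0.14 (SE) in OC+SM and 1.86 ± 0.14 in OC. On the log2 scale the gap between the lowest of the 12 aged libraries and the highest YC library was 1.23, the 3rd largest of all genes tested.

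Il10rb, the chain shared by the receptors for interleukin 10, interleukin 22 and the lambda interferons, rose less in fold but with little spread. It ranged from 61.1 to 72.7 CPM (median 62.6) in OC+SM, from 47.6 to 61.8 CPM (median 55.4) in OC, and from 27.7 to 37.5 CPM (median 34.6) in YC. The aged libraries all lay above the young ones, and 5 of the 6 OC+SM libraries lay above the highest OC library. Log2 fold changes over YC were 0.93 ± 0.08 in OC+SM and 0.68 ± 0.08 in OC.

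Mal encodes a small membrane protein with a MARVEL domain that carries cargo to the apical surface of epithelial cells and is also found in myelin. Its levels ran from 12.1 to 27.0 CPM (median 15.6) in OC+SM, from 10.2 to 21.7 CPM (median 15) in OC, and from 2.13 to 4.46 CPM (median 3.77) in YC. The groups of aged mice did not overlap with YC, and their own spread was wide, with a coefficient of variation of 31.9% in OC+SM and 26.8% in OC. Over YC the log2 fold change was 2.23 ± 0.22 in OC+SM and 2.07 ± 0.22 in OC.

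Rftn2 encodes raftlin 2, a relative of the lipid raft protein raftlin of B cells. It ranged from 23.9 to 30.8 CPM (median 25.8) in OC+SM, from 18.8 to 25.1 CPM (median 20.9) in OC, and from 10.9 to 15.9 CPM (median 13.0) in YC. All aged libraries lay above all young ones, and OC+SM 6, the lowest library for most of the other genes, was the highest here. On the log2 scale it was 1.01 ± 0.10 above YC in OC+SM and 0.70 ± 0.10 in OC. None of the 18 deposited values of Rftn2 was within 0.005 of a whole number, which RSEM gives where it splits reads between genes or places, and its level is less certain for that reason.

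Tmem178 encodes a protein of the endoplasmic reticulum that in mouse restrains the calcium signal behind osteoclast formation. It ranged from 73.0 to 188 CPM (median 143) in OC+SM, from 118 to 172 CPM (median 140) in OC, and from 22.3 to 71.4 CPM (median 37.4) in YC. The lowest aged library, OC+SM 6 at 73.0 CPM, and the highest young library, YC 3 at 71.4 CPM, almost met, while the other libraries were far apart. Log2 fold changes over YC were 1.80 ± 0.27 in OC+SM and 1.87 ± 0.27 in OC. Without OC+SM 6 and YC 3 they were 2.18 in OC+SM and 2.12 in OC.

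Snx10, a sorting nexin of endosomes that human osteoclasts need to resorb bone, varied little within groups. Levels ran from 23.7 to 30.9 CPM (median 29.0) in OC+SM, from 27.0 to 33.1 CPM (median 29.0) in OC, and from 14 to 17.9 CPM (median 16.2) in YC. Both aged groups had the same median and all 12 aged libraries lay above YC. Its log2 fold change over YC was 0.80 ± 0.08 in OC+SM and 0.86 ± 0.08 in OC.

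Pde1a encodes a phosphodiesterase that calcium and calmodulin switch on and that breaks down cyclic GMP and cyclic AMP. It varied least among the aged mice, with a coefficient of variation of 3.75% in OC+SM and 5.62% in OC, against 18.5% in YC. Its range was 45.6 to 51.0 CPM (median 49.5) in OC+SM, 40.7 to 47.6 CPM (median 44.1) in OC and 17.4 to 31.4 CPM (median 25.7) in YC. Aged and young libraries did not overlap, and the lowest young library was YC 3. Over YC its log2 fold change was 0.93 ± 0.09 in OC+SM and 0.79 ± 0.09 in OC.

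Cpxm2 encodes a secreted member of the M14 carboxypeptidase family for which no enzyme activity is known. It had the largest fold changes of the 10 genes and among the widest spread. It ranged from 5.66 to 35.5 CPM (median 27.8) in OC+SM, from 16.3 to 37.6 CPM (median 27.8) in OC, and from 2.38 to 8.51 CPM (median 3.81) in YC. The OC+SM library at 5.66 CPM was OC+SM 6, which fell inside the YC range, and the next lowest OC+SM library had 24 CPM. The log2 fold change over YC was 2.49 ± 0.40 in OC+SM and 2.55 ± 0.40 in OC, and without OC+SM 6 and YC 3 it was 2.59 in OC+SM and 2.45 in OC.

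Lix1, a gene first described in the developing chick limb, separated the ages without overlap. It ranged from 15.5 to 26.8 CPM (median 21.0) in OC+SM, from 13.2 to 20.1 CPM (median 16.2) in OC, and from 3.86 to 7.10 CPM (median 5.24) in YC. Of the OC+SM libraries, 4 lay above the highest OC library. The log2 fold change over YC was 1.95 ± 0.16 in OC+SM and 1.65 ± 0.17 in OC, and 3 of its 18 deposited values were whole within 0.005.

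Adh6b, a member of the alcohol dehydrogenase family, had the lowest counts, with 15 to 34 per YC library. It ranged from 2.89 to 11 CPM (median 5.01) in OC+SM, from 6.24 to 14.8 CPM (median 9.86) in OC, and from 1.60 to 2.91 CPM (median 1.98) in YC. OC lay wholly above YC, while OC+SM spread between them, with 4 of its 6 libraries below the lowest OC library and 1 just below the highest YC library. The log2 fold change over YC was 1.51 ± 0.33 in OC+SM and 2.27 ± 0.33 in OC.

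The comparison of Samul-tang with water in 40-week mice was not used to choose the genes and was tested, although the choice asked for a high level in both groups. For none of the 10 genes did all OC+SM libraries lie above all OC libraries, as they did for 0.849% of all genes, and none of the 10 was called at an adjusted p under 0.05 by the edgeR quasi-likelihood test, where 1.04% of all genes were. At an unadjusted p under 0.05 there were 3 of 10 genes, Il10rb, Rftn2 and Adh6b, against 16.9% of all genes, and DESeq2 and limma on TPM called none of the 10. The median log2 fold change of the 10 was 0.15, against 0.01 over all genes, and 6 of 10 were positive, against 51.3% of all genes. Without OC+SM 6 there were 8 positive, since Tmem178 stood at 0.05 in place of -0.07 and Cpxm2 at 0.14 in place of -0.06, and leaving out YC 3 as well also gave 8. Without OC+SM 2 there were 5, with a median of 0.06 and Mal at -0.03, and on log2(TPM + 1) and log2(TPM + 0.1) there were also 5, with a median of 0.05 and Mal at -0.13 and -0.15.

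Rftn2 averaged 26.5 ± 2.63 CPM in OC+SM and 21.3 ± 2.52 CPM in OC (SD, n = 6 each), with 3 OC+SM libraries above the highest OC library. Its log2 fold change was 0.31 ± 0.10 (SE; 95% interval 0.11 to 0.51; edgeR adjusted p = 0.0999). Il10rb averaged 65.0 ± 4.6 CPM in OC+SM and 54.8 ± 6.54 CPM in OC (SD, n = 6 each), a log2 fold change of 0.25 ± 0.08 (0.08 to 0.41; edgeR adjusted p = 0.117). Adh6b had a negative value, with 6.02 ± 3.27 CPM in OC+SM and 10.1 ± 3.61 CPM in OC (SD, n = 6 each) and a log2 fold change of -0.76 ± 0.30 (-1.37 to -0.14; edgeR adjusted p = 0.193). Without OC+SM 4, the highest OC+SM library, Adh6b was called, with a log2 fold change of -1.01 and an edgeR adjusted p of 0.0454, and over all alternatives its adjusted p ran from 0.0454 to 0.976. With the share of counts of the most abundant gene as a covariate, an alternative chosen after seeing the data, the log2 fold change of Adh6b was -0.07 ± 0.32 (edgeR adjusted p = 0.976).

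For the other 7 genes the intervals of the difference between OC+SM and OC contained 0. Those of Snx10 (-0.22 to 0.11), Pde1a (-0.05 to 0.33) and Sectm1a (-0.06 to 0.46) were narrow, and those of Tmem178 (-0.62 to 0.47) and Cpxm2 (-0.80 to 0.68) were wide. Lix1 ran from -0.01 to 0.61 and Mal from -0.25 to 0.56. Depth differed between these groups, and with group means taken out the genes correlated with log2 library total at r from -0.37 for Tmem178 to 0.69 for Pde1a, with Mal and Il10rb at 0.52 (18 libraries). With every library thinned to the smallest total, the log2 fold change of OC+SM over OC was 0.14 for Pde1a, 0.21 for Il10rb, 0.21 for Mal, 0.32 for Rftn2 and -0.78 for Adh6b, and none was called. A missed threshold does not show that the groups act alike.

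**Figure D2:**
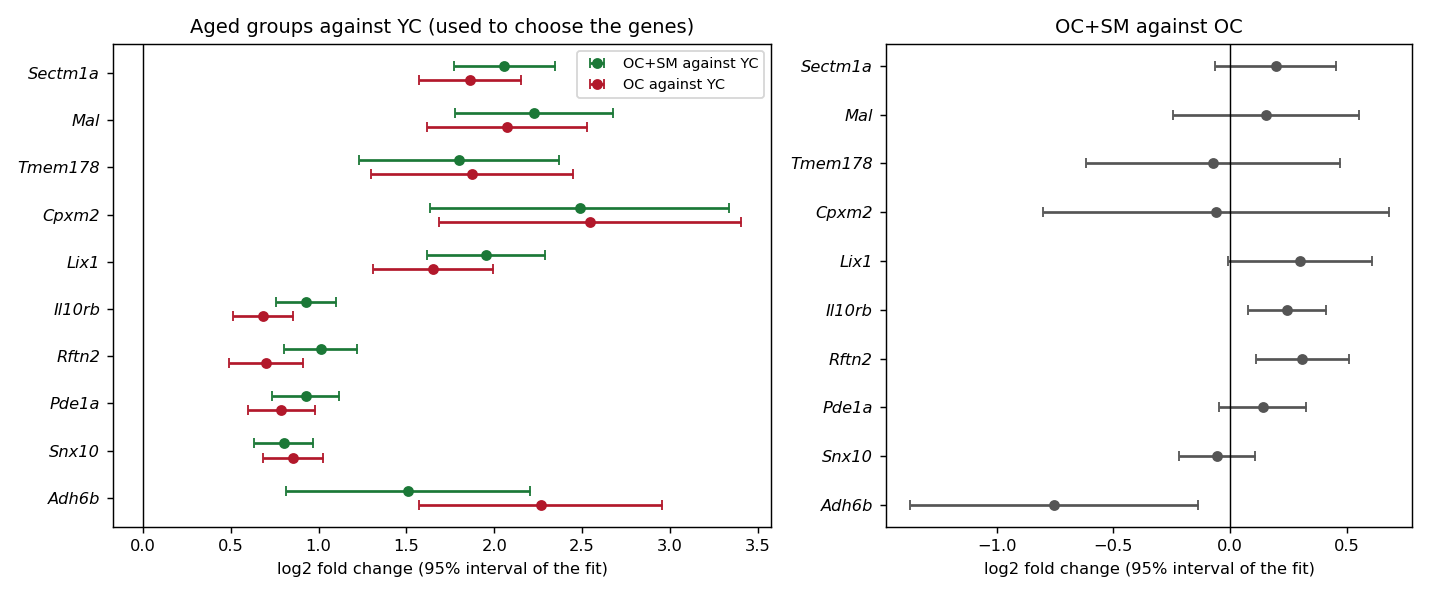
Log2 fold changes (horizontal axes) of the 10 genes (rows) with the 95% interval of the fit of 18 libraries. The left panel shows OC+SM and OC against YC, which chose the genes, and the right panel shows OC+SM against OC, where 7 intervals contain 0 and those of Il10rb, Rftn2 and Adh6b do not.

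Within groups the 10 genes did not move as a block. Over all 18 libraries their levels correlated with a median Pearson r of 0.87 (range 0.58 to 0.94 over 45 pairs), a value that includes the difference between the ages. With group means taken out, the median r was 0.12, 3 pairs passed 0.5 and 16 pairs were below 0. These correlations are a description over 18 libraries that share depth and handling. The closest pair was Tmem178 and Lix1 (r = 0.69, and 0.65 over 16 libraries without OC+SM 6 and YC 3). Cpxm2 and Lix1 stood at 0.52 (0.58 without them). Cpxm2 and Adh6b stood at 0.55, but at 0.34 without those libraries. Tmem178 and Pde1a ran against each other (r = -0.64, and -0.34 without those libraries).

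**Figure D3:**
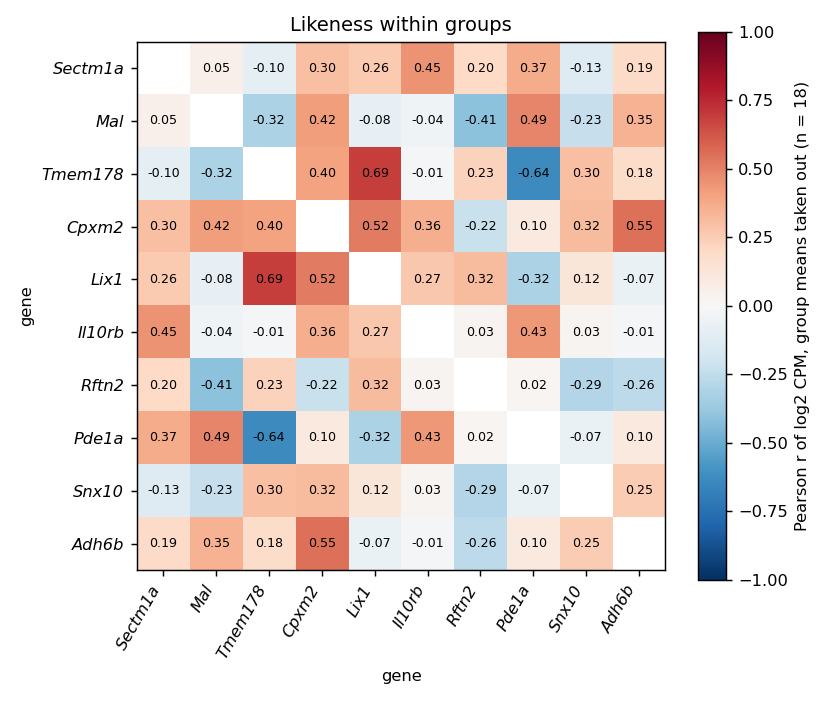
Pearson r of log2 CPM between each pair of the 10 genes (rows and columns) after the group means were taken out, over 18 libraries. Red cells are positive and blue cells negative, from 0.69 for Tmem178 and Lix1 to -0.64 for Tmem178 and Pde1a.

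**Figure D4:**
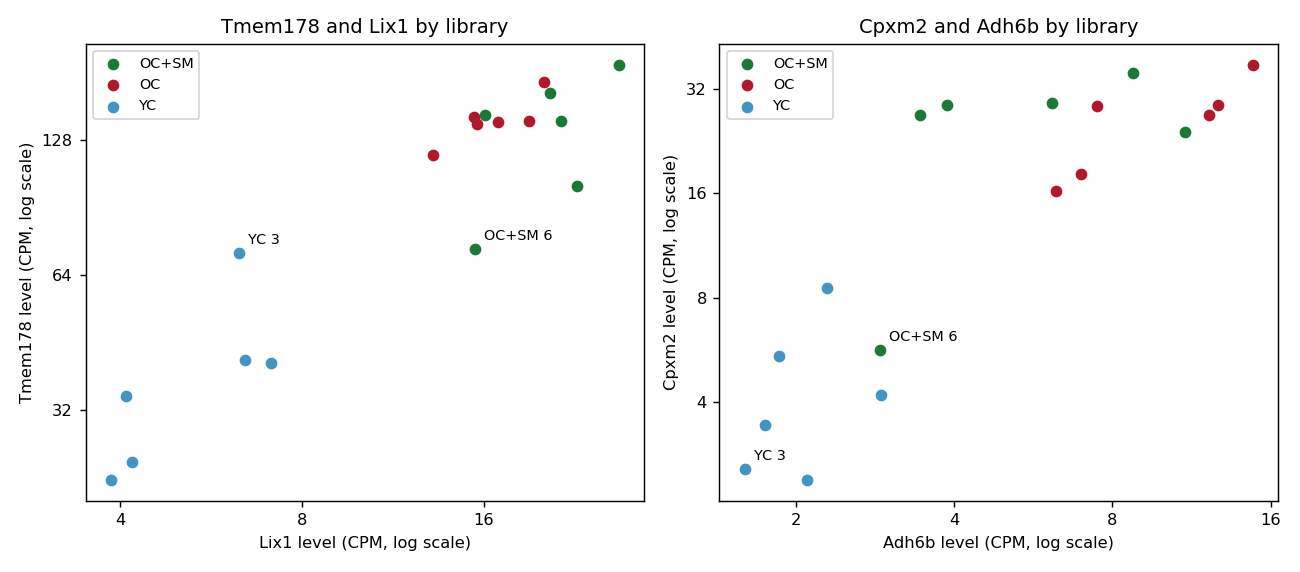
Levels of Tmem178 against Lix1 and of Cpxm2 against Adh6b in single libraries (CPM, both axes on log scales), coloured by group. OC+SM 6 has the lowest Tmem178 (73.0 CPM), Cpxm2 (5.66 CPM) and Adh6b (2.89 CPM) of the aged libraries, and YC 3 has the highest Tmem178 of its group at 71.4 CPM.

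Some genes had a pattern like that of a member over the 18 libraries. Each was the best match among all other tested genes, so a high r was fixed by the search. The closest matches had r from 0.92 to 0.96 on log2 CPM. Esr1, the main estrogen receptor gene of ovarian stroma and theca, was the best match of both Tmem178 (0.94) and Lix1 (0.95). Its mean was 55.9 ± 4.72 CPM in OC+SM, 52.6 ± 3.26 CPM in OC and 29.4 ± 3.69 CPM in YC (SD, n = 6 each), with log2 fold changes over YC of 0.93 ± 0.08 in OC+SM and 0.84 ± 0.08 in OC. That rise over YC was also fixed by the search, since Tmem178 and Lix1 were themselves chosen for one.

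Arhgap15, a gene for a Rac GTPase-activating protein, was the best match of both Mal (0.94) and Pde1a (0.96). The other best matches were Babam2 for Sectm1a (0.96), Mgst2 for Cpxm2 (0.95), Emb for Il10rb (0.94), Chrna4 for Rftn2 (0.96), Meis2 for Snx10 (0.93) and Mndal for Adh6b (0.92). With group means taken out, Chrna4 was again the best match of Rftn2 (0.81), and the other 9 genes had different best matches, with r from 0.81 to 0.92. These were Sec11c for Sectm1a, Abca3 for Mal, Ankrd63 for Tmem178, C1ra for Cpxm2, Catsperg1 for Lix1, Rnf214 for Il10rb, Rnf128 for Pde1a, Ube2q1 for Snx10 and Pdzd2 for Adh6b.

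Among relatives and partners of the 10 genes, 125 of 160 genes in 9 lists were tested. The lists were chosen with earlier results of these data known, so their shares are a description and not a test of the lists. In OC+SM against YC 23 were called higher, which is 18.4% where 11.5% of all genes were, and 6 lower, which is 4.8% where 10.9% of all genes were. In OC against YC 15 were called higher, which is 12% where 5.25% of all genes were, and 5 lower, which is 4% where 6.03% of all genes were. In OC+SM against OC 1 was higher and 1 lower, or 1.6% in all where 1.04% of all genes were called, and with 1 library left out these 2 calls became 0 to 5. Their median log2 fold change was 0.07 in OC+SM and 0.08 in OC over YC, and 0.00 in OC+SM over OC.

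Among the receptors that use the Il10rb chain, Il10ra, the first chain of the interleukin 10 receptor, had 1.79 ± 0.84 CPM in OC+SM, 1.35 ± 0.729 CPM in OC and 1.15 ± 0.28 CPM in YC (SD, n = 6 each). It was not called in any comparison (edgeR adjusted p = 0.22 or more). Transcripts of the ligands were scarce, with 10 counts of Il10 over all 18 libraries, none of Il22 and 11 of Ifnl3. In this list of 21 genes, 11 were tested, and in each comparison with YC 2 rose and none fell. Ifnar2, a chain of the type I interferon receptor, rose by 0.53 ± 0.07 in OC+SM (edgeR adjusted p = 8.41e-06) and by 0.49 ± 0.07 in OC (3.2e-05). Stat3, which interleukin 10 activates, rose over YC in OC (0.47 ± 0.13, edgeR adjusted p = 0.0194) and stood at 0.25 ± 0.13 in OC+SM (0.177). Socs3, another gene of the list, rose over YC in OC+SM (0.38 ± 0.12, edgeR adjusted p = 0.0221) and stood at 0.175 ± 0.12 in OC (0.402). Neither was called between OC+SM and OC (adjusted p = 0.384 for Stat3 and 0.386 for Socs3).

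Of the MAL family and lipid raft genes, 18 of 21 were tested, with 5 higher and none lower in OC+SM against YC, and 2 higher and 1 lower in OC against YC. The caveolin gene Cav2 rose by 0.78 ± 0.11 in OC+SM and by 0.42 ± 0.11 in OC (edgeR adjusted p = 2.34e-05 in OC+SM and 0.0129 in OC). Cav1 was called between OC+SM and OC (0.38 ± 0.09, adjusted p = 0.0394), and Cmtm6 rose by 0.42 ± 0.09 in OC+SM and 0.32 ± 0.09 in OC over YC (adjusted p = 0.00165 in OC+SM and 0.0225 in OC). Rftn1, the nearest relative of Rftn2, had 6.51 ± 0.952 CPM in OC+SM, 6.54 ± 0.691 CPM in OC and 6.86 ± 0.848 CPM in YC (SD, n = 6 each).

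In the phosphodiesterase and calmodulin list 19 of 21 genes were tested, with 3 higher and 2 lower in OC+SM against YC, and 5 higher and 1 lower in OC against YC. Pde8b, which breaks down cyclic AMP, rose by 0.49 ± 0.17 in OC+SM and 0.66 ± 0.17 in OC (edgeR adjusted p = 0.0401 in OC+SM and 0.0123 in OC), while Pde7b fell by 0.73 ± 0.16 in OC+SM and 0.68 ± 0.17 in OC on the log2 scale (adjusted p = 0.0024 in OC+SM and 0.00757 in OC). Pde1b, the closest relative of Pde1a that was tested, stood at -0.21 ± 0.17 in OC+SM and -0.24 ± 0.17 in OC and was not called (adjusted p = 0.417 in OC+SM and 0.424 in OC).

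Of 29 sorting nexin genes 28 were tested, and in OC against YC none was higher and 1, Snx18, was lower (-0.30 ± 0.08, edgeR adjusted p = 0.0141). In OC+SM against YC, 2 were higher, Snx4 (0.32 ± 0.06, adjusted p = 0.000577) and Snx1 (0.34 ± 0.07, adjusted p = 0.0011), and Snx18 was lower (-0.45 ± 0.08, adjusted p = 0.000303). The median of the list was 0.06 in both comparisons, while Snx10 itself stood at 0.80 in OC+SM and 0.86 in OC.

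Osteoclast and acid secretion genes were set beside Tmem178 and Snx10. Of 18 genes 15 were tested, with 6 higher and 1 lower in OC+SM against YC and 3 higher in OC against YC. Atp6v0d2, a proton pump subunit of osteoclasts and fused macrophages, rose by 1.70 ± 0.42 in OC+SM and by 1.71 ± 0.42 in OC (edgeR adjusted p = 0.00806 in OC+SM and 0.0142 in OC). The acid phosphatase gene Acp5 rose by 0.91 ± 0.24 in OC+SM and 0.86 ± 0.24 in OC (adjusted p = 0.00807 in OC+SM and 0.0204 in OC), and the carbonic anhydrase gene Car2 by 0.81 ± 0.20 in OC+SM and 0.75 ± 0.20 in OC (adjusted p = 0.0046 in OC+SM and 0.0143 in OC). Nfatc1, the transcription factor that Tmem178 restrains in osteoclast precursors, stood at -0.17 ± 0.21 in OC+SM and 0.27 ± 0.21 in OC and was not called (adjusted p = 0.603 in OC+SM and 0.47 in OC). Dcstamp, needed for the fusion of osteoclasts, had no counts.

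Of 20 M14 carboxypeptidase genes 11 were tested. Cpxm1, the nearest relative of Cpxm2, went the other way from it. It averaged 13.8 ± 3.49 CPM in OC+SM, 14.8 ± 3.68 CPM in OC and 20.7 ± 1.55 CPM in YC (SD, n = 6 each), and fell by 0.58 ± 0.15 in OC+SM and 0.48 ± 0.15 in OC on the log2 scale (edgeR adjusted p = 0.00692 in OC+SM and 0.0398 in OC). Cpa1 fell by 1.9 ± 0.34 in OC+SM and 1.87 ± 0.35 in OC on that scale (adjusted p = 0.000303 in OC+SM and 0.000769 in OC). Aebp1, a matrix protein with a carboxypeptidase-like domain, rose in OC over YC (0.52 ± 0.09, adjusted p = 0.000178) and was lower in OC+SM than in OC (-0.38 ± 0.09, adjusted p = 0.0273).

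In the list of alcohol, aldehyde and retinol dehydrogenases 20 of 24 genes were tested, with 4 higher in OC+SM against YC, 2 higher in OC against YC and none lower in either. Aldh1a2, which makes retinoic acid, rose by 1.09 ± 0.16 in OC+SM and 0.75 ± 0.16 in OC (edgeR adjusted p = 0.00016 in OC+SM and 0.00475 in OC). Adh7 rose in OC+SM (1.88 ± 0.33, adjusted p = 0.000871) and stood at 0.92 ± 0.34 in OC (adjusted p = 0.0945). The list of SECTM1 partners had 1 tested gene, Sectm1b, and the receptor genes Cd7 and Tnfrsf18 had at most 21 and 11 counts in any library.

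Gene order around the 10 genes was looked at after the values had been seen, and several neighbours also belong to the lists above. Sectm1b, Ifnar2 and Adh1, called higher in OC+SM over YC, are counted both in those lists and among the neighbours. Sectm1b is next to Sectm1a on chromosome 11 in the GRCm38 RefSeq annotation. It had 1.5 ± 0.444 CPM in OC+SM, 0.833 ± 0.431 CPM in OC and 0.438 ± 0.207 CPM in YC (SD, n = 6 each), with log2 fold changes over YC of 1.76 ± 0.38 in OC+SM (edgeR adjusted p = 0.00203) and 0.92 ± 0.41 in OC (0.161). These low levels limit the precision for Sectm1b. Tex19.1, 2 genes from Sectm1a on the other side, went the other way over YC. It stood at -1.73 ± 0.26 in OC+SM (edgeR adjusted p = 4.51e-05) and -1.67 ± 0.26 in OC (0.00013). On chromosome 16, Il10rb lies between Ifnar2 and Ifnar1, followed by Ifngr2. Ifnar2 rose as given above, while Ifnar1 stood at -0.07 ± 0.12 in OC+SM and 0.10 ± 0.12 in OC and Ifngr2 at 0.16 ± 0.10 in OC+SM and 0.00 ± 0.10 in OC, neither of them called (adjusted p = 0.283 or more).

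Snx10 lies next to Skap2 on chromosome 6, which rose by 0.61 ± 0.08 in OC+SM and 0.43 ± 0.08 in OC (edgeR adjusted p = 6.27e-06 in OC+SM and 0.000484 in OC), and on its other side next to Cbx3, which stood at -0.06 ± 0.05 in OC+SM and -0.02 ± 0.05 in OC (adjusted p = 0.383 in OC+SM and 0.897 in OC). Adh6b lies among other alcohol dehydrogenase genes on chromosome 3. Adh6a beside it had 1 count over all 18 libraries and Adh4 had none. Farther out, Adh1 stood over YC at 0.70 ± 0.21 in OC+SM (edgeR adjusted p = 0.0282) and -0.04 ± 0.21 in OC (0.932). Adh5 stood at 0.16 ± 0.07 in OC+SM (0.0938) and -0.09 ± 0.07 in OC (0.431). Between OC+SM and OC, Adh1 stood at 0.74 ± 0.21 (0.0939) and Adh5 at 0.25 ± 0.07 (0.0607), neither called. Of the 40 nearest protein-coding genes, 2 on each side of every member, 27 were tested. In OC+SM against YC 8 were called higher, which is 29.6% where 11.5% of all genes were, and 3 lower, which is 11.1% where 10.9% were. In OC against YC 3 were called higher, which is 11.1% where 5.25% of all genes were, and 2 lower, which is 7.41% where 6.03% were. In OC+SM against OC 1 was called higher, which is 3.7% where 0.548% of all genes were, and none lower. It was Oat, 2 genes from Cpxm2 (0.44 ± 0.08, edgeR adjusted p = 0.0105). Whether that call holds with 1 library left out was not tested.

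The promoter table, from RefSeq on the build GRCm38.p6, held 6 of the 10 genes with 11 start sites. Each entry covers 250 bases before to 50 after a start. The 4 genes with a single start in that table are printed, since Tmem178 and Lix1 were the closest pair within groups and since these 4 differ in base composition. Capitals mark matches on either strand to the searched motifs, and the sequences run 5′ to 3′ on the strand of the gene.
Tmem178, chr17:80944382-80944681, plus strand: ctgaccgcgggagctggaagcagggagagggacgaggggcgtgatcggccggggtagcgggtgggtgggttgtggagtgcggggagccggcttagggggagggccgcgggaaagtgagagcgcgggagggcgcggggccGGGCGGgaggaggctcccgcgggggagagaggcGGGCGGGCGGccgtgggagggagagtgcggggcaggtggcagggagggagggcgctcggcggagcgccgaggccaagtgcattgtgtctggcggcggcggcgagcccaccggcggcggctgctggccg
Lix1, chr17:17402436-17402735, plus strand: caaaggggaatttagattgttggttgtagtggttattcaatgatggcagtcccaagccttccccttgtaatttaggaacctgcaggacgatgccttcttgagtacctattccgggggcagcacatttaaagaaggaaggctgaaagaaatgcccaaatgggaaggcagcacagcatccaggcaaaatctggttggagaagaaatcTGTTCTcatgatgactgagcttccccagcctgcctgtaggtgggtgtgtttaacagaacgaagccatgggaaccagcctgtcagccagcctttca
Mal, chr2:127656646-127656945, minus strand: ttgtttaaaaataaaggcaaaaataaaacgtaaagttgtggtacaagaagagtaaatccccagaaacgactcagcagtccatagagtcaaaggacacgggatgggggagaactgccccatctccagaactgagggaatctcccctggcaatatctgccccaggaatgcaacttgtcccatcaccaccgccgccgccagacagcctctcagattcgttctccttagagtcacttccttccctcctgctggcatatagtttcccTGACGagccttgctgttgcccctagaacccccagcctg
Cpxm2, chr7:132154692-132154991, minus strand: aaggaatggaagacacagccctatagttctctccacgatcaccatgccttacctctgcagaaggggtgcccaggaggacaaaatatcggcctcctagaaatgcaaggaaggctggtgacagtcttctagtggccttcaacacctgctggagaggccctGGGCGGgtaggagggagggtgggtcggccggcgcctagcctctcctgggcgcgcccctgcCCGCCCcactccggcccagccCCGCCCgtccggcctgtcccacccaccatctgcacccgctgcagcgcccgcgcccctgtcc
Lix1 has 3 CG dinucleotides and Tmem178 has 37, with 8 in Mal and 17 in Cpxm2, while the median of 32851 promoters was 7 and the quartiles 3 and 20. The pair with the highest correlation within groups is thus the pair with the fewest and the most CG dinucleotides of the 4.

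The capitals in Tmem178 and Cpxm2 are GGGCGG or its reverse complement, the SP1 box, which 35.7% of the promoters hold. In Tmem178 a pair of them overlap. Lix1 holds TGTTCT, the core of the glucocorticoid and progesterone response element, found in 19.0% of promoters. Mal holds TGACG, the core of the cAMP response element, found in 20.8%. Also searched on both strands were TATAAA (13.6% of promoters), CCAAT (37.4%), TGANTCA (7.81%), AGGTCA (16.3%), TCAAGGNCA (1.62%) and CACGTG (7.15%). None of these was in the 4 printed windows. A match is a description of letters and does not show a site in use.

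Cell type markers were summed over whole lists, and their part in the results above was not tested. The oocyte markers ran from 35.4 to 71.3 CPM in OC+SM, from 37.1 to 63.7 CPM in OC and from 118 to 184 CPM in YC, and 9 of 9 tested were called lower in each aged group. The luteal markers ran from 15300 to 17900 CPM in OC+SM, from 15200 to 17400 CPM in OC and from 10300 to 13600 CPM in YC, and 2 of 8, Hsd3b1 and Cyp11a1, were called higher in each aged group. The markers of multinucleated giant cells ran from 33.6 to 140 CPM in OC+SM, from 34.2 to 95.9 CPM in OC and from 9.84 to 38.2 CPM in YC, with 4 of 6 called higher in each. All 6 were detected, and Acp5 and Atp6v0d2, called in each aged group, also belong to the osteoclast list above.

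Granulosa markers ran from 516 to 1210 CPM in OC+SM, from 713 to 1140 CPM in OC and from 1040 to 1510 CPM in YC, with 5 of 8 called lower in OC+SM and 4 in OC. Theca markers ran from 356 to 719 CPM in OC+SM, from 356 to 427 CPM in OC and from 414 to 1430 CPM in YC, and Ptch1, Gli1 and Insl3 of 5 were lower in each aged group. Stromal fibroblast markers ran from 1290 to 1700 CPM in OC+SM, from 1140 to 1460 CPM in OC and from 1320 to 1830 CPM in YC, with Ogn of 7 lower in OC+SM and Dcn and Ogn lower in OC. No marker of the granulosa, theca and stromal fibroblast lists was called higher in either aged group.

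Endothelial markers ran from 159 to 264 CPM in OC+SM, from 255 to 289 CPM in OC and from 217 to 252 CPM in YC, with Plvap of 7 higher and Prox1 and Lyve1 lower in OC+SM, and Plvap and Kdr higher and Prox1 and Lyve1 lower in OC. Surface epithelium and mesothelium markers ran from 70.6 to 146 CPM in OC+SM, from 69.6 to 93.4 CPM in OC and from 65.7 to 78.6 CPM in YC, with 4 of 8 higher and Msln lower in OC+SM, and Krt8 and Msln lower in OC. Oviduct epithelium markers ran from 16.1 to 26.1 CPM in OC+SM, from 21.1 to 23.7 CPM in OC and from 19.6 to 24.1 CPM in YC, with Krt7 of 3 tested higher in OC+SM. Erythrocyte markers ran from 205 to 652 CPM in OC+SM, from 235 to 663 CPM in OC and from 329 to 713 CPM in YC, with none of 4 called.

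Macrophage markers ran from 339 to 541 CPM in OC+SM, from 306 to 415 CPM in OC and from 214 to 453 CPM in YC. The ages overlapped only through YC 3. Of 9 markers, Lyz2 was called higher and Mrc1 lower in OC+SM, and C1qa higher in OC. B and plasma cell markers ran from 5.89 to 21 CPM in OC+SM, from 8.22 to 15.3 CPM in OC and from 2.63 to 8.65 CPM in YC, with Jchain and Igkc of 4 higher in each aged group. Adipocyte markers ran from 33.1 to 104 CPM in OC+SM, from 41.5 to 88.5 CPM in OC and from 13.5 to 48.3 CPM in YC, with Fabp4 of 2 tested higher in each aged group and Lep at 0 in every library. Smooth muscle markers ran from 653 to 792 CPM in OC+SM, from 794 to 897 CPM in OC and from 895 to 1540 CPM in YC, with 5 of 7 lower in each aged group. T and NK cell markers ran from 8.06 to 11.2 CPM in OC+SM, from 5.47 to 12.8 CPM in OC and from 3.51 to 6.17 CPM in YC, with 1 of 4, Trbc2, called higher in each. OC+SM 6 had the highest giant cell sum, 140 CPM, the highest macrophage sum, 541 CPM, and the lowest endothelial sum, 159 CPM, of its group. YC 3 had the highest theca sum, 1430 CPM, against 414 to 528 CPM in the other YC libraries. It also had the highest macrophage sum of YC, 453 CPM, against 214 to 287 CPM in the others. Its giant cell sum, 38.2 CPM, was the only one of YC inside the range of the aged libraries, against 9.84 to 24.3 CPM in the others.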

How the data were processed

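Expected counts and TPM were deposited by the authors as 1 gene table per library, per the file headers. GRCm39 as the build, and RSEM 1.3.3, STAR 2.7.9a and FastQC 1.9 as tools, come from the submitters' processing notes, and the labels' protocols name the QuantSeq 3' kit. Annotation and strand setting: not given in the sources used here. RSEM splits reads that match several genes, so these values can be fractions. Of those of the 10 genes, 69.4% lay within 0.005 of a whole number, and all were rounded. Symbols came from a GRCm38 annotation by Ensembl identifier, for 52083 of 55416 genes.

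Genes were filtered (at least 10 counts at median depth in about 6 libraries, at least 15 in all), scaled by TMM and tested with the quasi-likelihood test of edgeR 4.0.16 in R 4.3.3, with 18 libraries in 1 fit and Benjamini-Hochberg adjustment over 16959 genes at 0.05. DESeq2 1.42.0 and limma 3.58.1 gave alternatives. The code was tested on simulated data. Errors of fold changes are SE. 1 CPM stood for 9 to 20 counts, which limits precision for Adh6b and for genes near or below 1 CPM, such as Sectm1b and Il10ra. Every one of 153 library pairs differed beyond counting noise (chi-square of at least 4.1 per degree of freedom). Correlations used log2 CPM with a prior count of 2. Named genes were the 10 members, up to 4 called genes of each list with the smallest p, and the best match of each member; others named were chosen after their values were seen. The members and lists were chosen with earlier results of these data known. Exons of Cpxm2, Il10rb, Rftn2 and Adh6b overlap 1 other annotated gene each, with at most 116 counts over all libraries. One marker list is not reported here.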

Additional observations from a re-analysis of the deposited data

How the results depend on the processing

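The rises of the 10 genes over YC were positive under all 29 alternatives. That sign follows from the choice of the genes for such rises in these same libraries. Their median log2 fold change ran from 1.52 to 1.78 in OC+SM and from 1.66 to 1.82 in OC when 1 library was left out. On log2(TPM + 1) it was 1.19 in OC+SM and 1.37 in OC, where the pseudocount understates low genes, and adding the most abundant gene's share of counts to the fit, chosen after seeing the data, gave 1.93 in OC+SM.

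Between OC+SM and OC, 0 to 1 of the 10 genes was called when 1 library was left out (Adh6b, without OC+SM 4) and 0 otherwise. Calls over all genes, 176, became 663 with DESeq2, 45 with only the 12 libraries compared, 483 without YC 3 and OC+SM 6 (also chosen after seeing the data), and 0 with that covariate, which differs between these groups. With 1 library left out they ran from 32 (without OC+SM 3) to 593 (without OC+SM 4), with 380 without YC 3, 318 without OC+SM 5, 60 without OC+SM 1, 105 without OC+SM 2, and 99, 102, 78, 72 and 85 without OC 1, 2, 3, 4 and 6. Calls in the partner lists, 2, became 7 with DESeq2, 0 with only the 12 libraries, 1 on either log2 TPM scale and 0 with the covariate, and ran from 0 to 5 with 1 library left out. Between OC+SM and YC, calls over all genes fell to 1368 and partner calls to 10 with the covariate. The causes were not tested.

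On log2(TPM + 1) and log2(TPM + 0.1) the share of calls that were higher was 40.4% and 41.2% in OC+SM against YC (51.5% on counts), and 33.6% and 34.3% in OC against YC (46.5%). Replicate numbers in the titles showed no pairing: same-numbered libraries had correlations of deviations between -0.118 and 0.074, and with the replicate block 139 genes were called between OC+SM and OC, 1756 between OC and YC and 3535 between OC+SM and YC. With low counts kept, or with libraries thinned to one depth, none of the 10 genes was called between OC+SM and OC. Adh6b has the lowest counts of the 10 genes.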
